A study of Mus musculus with 7 samples.

Results

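Fibroblast growth factor (FGF) ligands, their receptors and the feedback genes of the ERK pathway were examined in sorted mouse mammary cells, as 37 genes of 17096 measured. Members were chosen by symbol: the numbered Fgf genes, Fgfr1 to Fgfr4, Fgfrl1, the Spry and Spred genes, Dusp6, Etv4 and Etv5. Frs2, the adaptor gene that the same rule names, had no probe set of its own and was not analysed here. Among the 37 were 18 ligand genes, 4 genes of intracellular FGF homologous factors, 5 receptor genes, 7 Sprouty and Spred genes, the ERK phosphatase gene Dusp6 and 2 ETS factor genes.

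Adult luminal cells (2 arrays) were YFP+ cells of K8CREERT2/RosaYFP mice taken 8 weeks after tamoxifen, so that the keratin 8 promoter decided which cells were marked. Adult basal cells (2 arrays) were YFP+ cells of K5CREERT2/RosaYFP mice at the same 8 weeks, marked through the keratin 5 promoter. The word adult is used here for these cells, whose age at labelling the labels do not give. CD49fHi Lgr5Hi embryonic cells (3 arrays of 2000, 2000 and 813 cells) came from Lgr5-IRES-GFP female embryos at embryonic day 14, each array from the pooled females of a litter. The labels do not say if the adult replicates are different animals. The p-values thus reflect array-to-array spread, which may be technical, and the number of arrays limits every value.

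Secreted FGFs bind receptor tyrosine kinases together with heparan sulfate on the cell surface, and the receptors signal through RAS to the kinase ERK. ERK activity induces its own inhibitors, among them the Sprouty and Spred proteins and the phosphatase DUSP6, and it acts through ETS factors such as ETV4 and ETV5. In the mouse mammary gland, FGF10 from the mesenchyme and FGFR2 in the epithelium are known for their part in bud formation and duct branching.

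The identity of the adult arrays was checked on marker genes. Of 8 basal and myoepithelial markers, all 8 were higher in basal cells by a measured 2-fold or more, among them Krt5, Krt14 and Trp63. Of 11 luminal markers, 7 passed the 2-fold threshold on the luminal side, and Krt8, Krt18, Cdh1 and Epcam were the other 4. Median log2 intensity ran from 5.05 to 5.08 over the 7 arrays. Background was set at 5.74 on the log2 scale, a level that 95% of the probe sets for genes of other organs stayed under, and 18 members had an adult group mean above it. Embryonic columns 1 and 2 held identical values for 16913 of 45033 probe sets, and the embryonic means lay close to the adult means. The main tests below therefore used the 4 adult arrays alone, and a fit of all 7 arrays is given at the end. A difference between luminal and basal cells was counted where the Benjamini-Hochberg adjusted p of limma, over all genes, was under 0.05, and as passing the 2-fold threshold where the measured log2 difference also reached 1. Where a group lay below background, that measured size is uncertain. For members and the related genes below that passed the threshold with 1 group below background, a bound against the background level is given. Among markers, with values raised to that level, Oxtr was at least 1.83-fold higher in basal cells and Elf5 at least 1.89-fold in luminal cells. The luminal marker Kit lay below background in both groups.

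The ligand genes Fgf1, Fgf2 and Fgf18, the receptor genes Fgfr1, Fgfr3 and Fgfrl1 and the feedback genes Spry2, Spred1, Spred2 and Dusp6 were higher in basal cells. Fgf12 and Fgf13 were higher in luminal cells, Fgf12 with all its values below background. By adjusted p, 10 of 37 members were higher in basal cells, against 6.14% of all genes, and 2 were higher in luminal cells, against 10.7% of all genes. The 2-fold threshold was passed by 7 members, against 6.81% of all genes, and 5 of them (Fgf2, Fgf18, Fgfr3, Fgfrl1 and Dusp6) were higher in basal cells, against 3.24% of all genes. Fgf12 and Fgf13 were the 2 that passed it by measured difference on the luminal side, against 3.57% of all genes. Arrays of both lineages stood wholly apart in 59.2% of all genes. Among members they did not overlap in 19 on the basal side (25.3% of all genes) and 9 on the luminal side (33.9% of all genes). The mean was on the basal side in 22 members, where 46.1% of all genes lay. The median log2 difference, luminal minus basal, was -0.12 over the 37 members and 0.02 over all genes. Without luminal replicate 1, 1 member was higher in basal cells by adjusted p, and without luminal replicate 2, 2 were. Those fits kept 1 luminal array, and over all genes they placed 1.68% and 2.42% higher in basal cells. With each adult array left out in turn, Fgf2 stayed over 2-fold by measured difference (-2.37 to -2.02). Fgf18, Fgfr3, Fgfrl1 and Dusp6 kept their sign, and each fell under 2-fold in at least 1 such fit. At their smallest, their differences were -0.80, -0.68, -0.85 and -0.998.

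**Figure D1:**
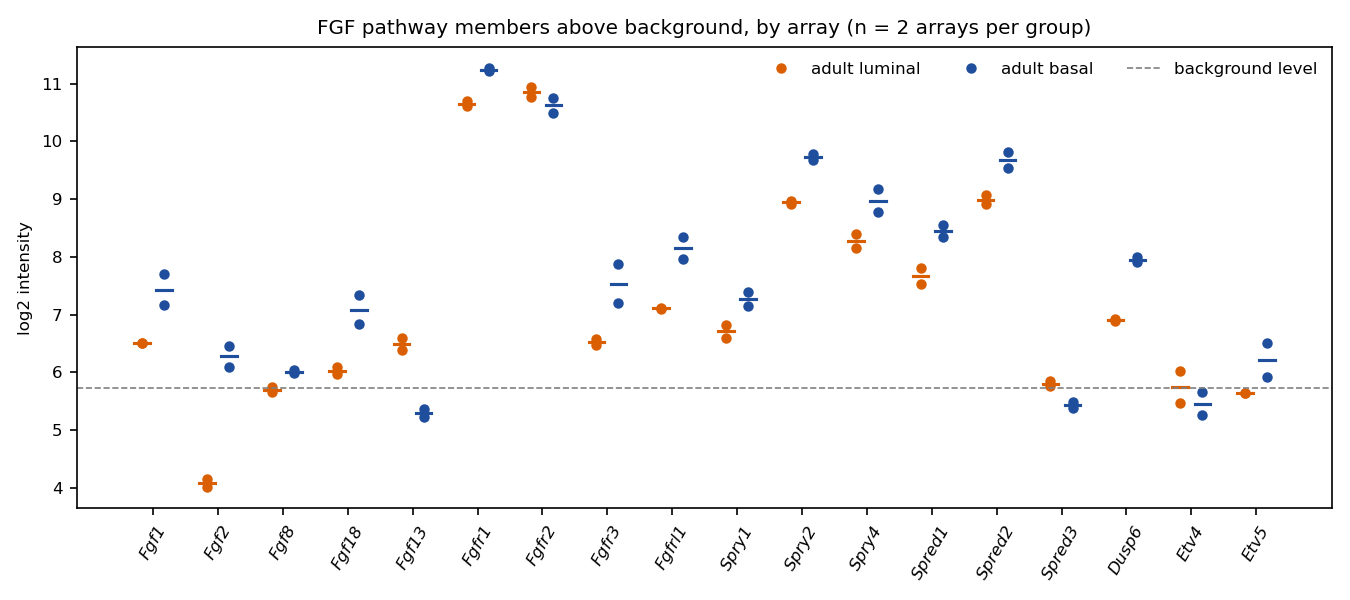
Log2 intensity of the 18 members above background, with luminal arrays in orange to the left of basal arrays in blue, 2 arrays each, short lines for group means and a dashed line at the background level of 5.74. Fgf2 is the member whose luminal points lie far under the line, at 4.01 and 4.16, and Fgf13 is a member whose luminal points lie above its basal points; heights of different genes are not comparable.

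Among secreted ligands, Fgf2, Fgf1 and Fgf18 were higher in basal cells. Fgf2, which encodes basic FGF, a ligand held in the matrix by heparan sulfate, had log2 intensities of 4.01 and 4.16 in luminal arrays, against 6.45 and 6.10 in basal arrays. The luminal values lay below background and both basal values above it. The log2 difference, luminal minus basal, was -2.19 ± 0.16 (SE, n = 2 and 2, adjusted p = 0.00280), and with luminal values raised to the background level the gene was at least 1.45-fold higher in basal cells. The RefSeq gene table places Nudt6 and Fgf2os across part of Fgf2, and the labels name no strand-specific labelling, so that signal of overlapping stretches cannot be told apart. The same limit holds for Fgf1, Fgf7, Fgf12 to Fgf15, Fgf17, Fgfr1, Spred3 and Dusp6, which other genes in that table also overlap. Nudt6 had 5.52 and 5.15 in luminal arrays and 6.90 and 6.75 in basal arrays, and it too was higher in basal cells (adjusted p = 0.00620). The promoter of Fgf2, from 250 bases before to 50 after the gene's start in RefSeq (build GRCm38.p6), is shown because Fgf2 is the ligand gene that lay below background in luminal cells and above it in both basal arrays, and differed in all 4 fits with an array left out.
Fgf2 promoter, chr3:37348403-37348702, plus strand: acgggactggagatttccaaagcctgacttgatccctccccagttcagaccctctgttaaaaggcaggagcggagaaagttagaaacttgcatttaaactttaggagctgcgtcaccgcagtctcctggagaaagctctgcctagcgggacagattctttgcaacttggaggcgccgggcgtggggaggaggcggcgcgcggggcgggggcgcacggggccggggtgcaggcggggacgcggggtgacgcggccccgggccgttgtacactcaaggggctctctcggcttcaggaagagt

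Fgf1 encodes acidic FGF, a ligand that binds all FGF receptors. It had log2 intensities of 6.514 and 6.502 in luminal arrays, against 7.16 and 7.70 in basal arrays. The groups did not overlap, the basal arrays lay further apart than the luminal ones, and the difference was -0.92 ± 0.20 (SE, adjusted p = 0.0313), which is under 2-fold. A separate Fgf1 probe set gave the same difference of -0.92. Fgf18, a ligand known from bone and lung development, had 6.09 and 5.97 in luminal arrays, against 6.83 and 7.33 in basal arrays. Its difference of -1.05 ± 0.19 (SE, adjusted p = 0.0205) was just over 2-fold, and it was -0.80 without basal replicate 2. Fgf8, a ligand of limb and brain organisers, lay close to background, at 5.66 and 5.75 in luminal and 6.04 and 5.99 in basal arrays, and its difference of -0.31 had an adjusted p = 0.146.

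The means of the other 14 ligand genes lay below background in both adult groups: Fgf3 to Fgf7, Fgf9, Fgf10, Fgf15 to Fgf17 and Fgf20 to Fgf23. Their differences ran from -0.46 for Fgf21 to 0.29 for Fgf5, and none passed in limma, with an unadjusted p of 0.0698 as the lowest of the 14. Fgf10, the mesenchymal ligand of the mammary bud, had 4.88 and 5.04 in luminal arrays, against 4.87 and 4.65 in basal arrays. Fgf7, a ligand of fibroblasts that acts on epithelium, had 4.48 and 4.55 in luminal arrays, against 4.75 and 4.80 in basal arrays. A small difference below background does not show equal expression.

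The intracellular FGF homologous factors, which share the FGF fold but act inside the cell and are known as partners of voltage-gated sodium channels, included 1 gene, Fgf13, that was above background and higher in luminal cells. Fgf13 had log2 intensities of 6.39 and 6.59 in luminal arrays, against 5.23 and 5.36 in basal arrays. The luminal values lay above background and the basal values below it. Its difference was 1.19 ± 0.14 (SE, adjusted p = 0.00660), and with basal values raised to the background level it was at least 1.69-fold higher in luminal cells. A separate Fgf13 probe set gave 1.05. Fgf12 had 4.94 and 5.37 in luminal arrays, against 3.97 and 3.89 in basal arrays. All 4 values lay below background, so the size of its difference (1.22 ± 0.17, adjusted p = 0.0114) is not read as a fold, and its other 2 probe sets gave -0.05 and -0.12. Fgf14 (0.32) and Fgf11 (-0.01) lay below background in both groups and did not pass.

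Receptor genes split by member. Fgfr1, a receptor found in both epithelium and stroma, had log2 intensities of 10.69 and 10.61 in luminal arrays, against 11.22 and 11.27 in basal arrays. The replicates of each group lay within 0.1 of each other, and the difference of -0.59 ± 0.12 (SE, adjusted p = 0.0273) was under 2-fold. Fgfr2, the receptor of FGF7 and FGF10 in epithelium through its IIIb form, had 10.94 and 10.77 in luminal arrays, against 10.50 and 10.76 in basal arrays. The lower luminal value and the higher basal value nearly met, and the difference of 0.22 ± 0.15 did not pass (adjusted p = 0.376, 95% interval -0.14 to 0.59).

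Fgfr3, a receptor known for restraining bone growth, had 6.58 and 6.47 in luminal arrays, against 7.20 and 7.87 in basal arrays. Its difference of -1.01 ± 0.23 (SE, adjusted p = 0.0384) stood at the edge of 2-fold, and it was -0.68 without basal replicate 2. Fgfrl1 encodes a receptor-like protein that binds FGFs and lacks the kinase domain. It had 7.11 and 7.11 in luminal arrays, against 7.96 and 8.34 in basal arrays, a difference of -1.04 ± 0.16 (SE, adjusted p = 0.0139). Fgfr4 lay below background in both groups, with means of 4.25 in luminal and 4.37 in basal cells. Of the 5 receptor genes, 3 were thus higher in basal cells by adjusted p, against 6.14% of all genes. None was higher in luminal cells, against 10.7% of all genes. The lowest unadjusted p of the other 2 in limma, that of Fgfr2, was 0.182.

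**Figure D2:**
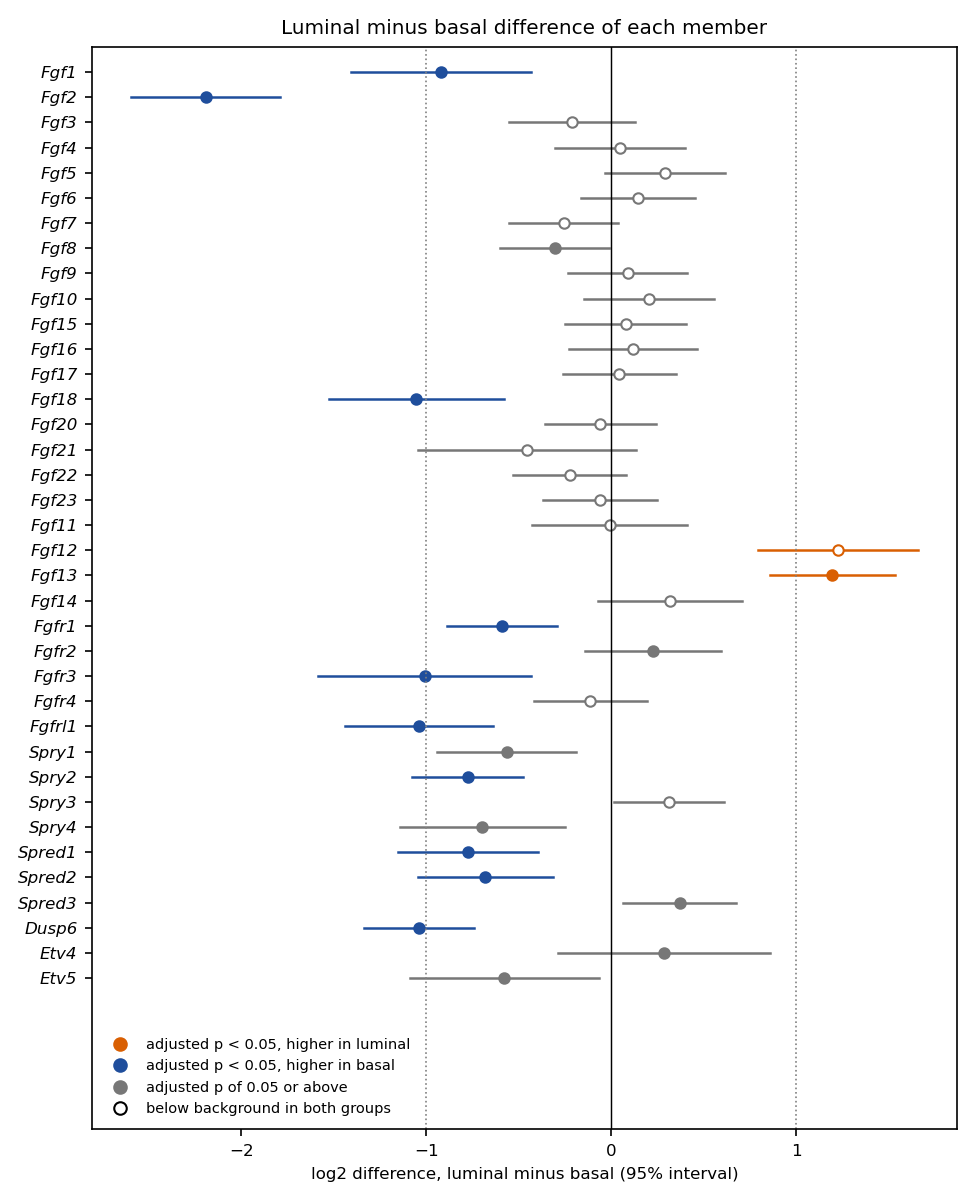
Log2 difference, luminal minus basal, of all 37 members with 95% intervals from limma; open circles mark members below background in both groups and dotted lines mark a 2-fold difference. Blue members (higher in basal cells, adjusted p under 0.05) run from -2.19 for Fgf2 to -0.59 for Fgfr1, and the orange ones (higher in luminal cells) are Fgf12 at 1.22 and Fgf13 at 1.19.

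Sprouty and Spred genes, whose products damp the RAS to ERK step, lay on the basal side in 5 of 7 members, and 3 of them passed, all under 2-fold. Spry2 had log2 intensities of 8.92 and 8.98 in luminal arrays, against 9.77 and 9.68 in basal arrays. The spread within each group was a small part of the gap, and the difference was -0.78 ± 0.12 (SE, adjusted p = 0.0139). Spry4 had 8.40 and 8.15 in luminal arrays, against 8.77 and 9.17 in basal arrays, and its difference of -0.70 ± 0.18 had an adjusted p = 0.0522. Spry1 had 6.60 and 6.82 in luminal arrays, against 7.16 and 7.40 in basal arrays, with a difference of -0.57 ± 0.15 (adjusted p = 0.0573). Neither overlapped between groups, and neither passed. Spry3, a member below background in both groups, had 0.31.

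Spred1, an inhibitor that acts with neurofibromin on RAS, had 7.81 and 7.54 in luminal arrays, against 8.35 and 8.55 in basal arrays. Its difference was -0.78 ± 0.15 (SE, adjusted p = 0.0254). Spred2, its close relative, had 8.92 and 9.07 in luminal arrays, against 9.54 and 9.81 in basal arrays, a difference of -0.68 ± 0.15 (SE, adjusted p = 0.0330). The groups did not overlap in either gene. Spred3 lay on the background level, at 5.76 and 5.85 in luminal and 5.49 and 5.38 in basal arrays, and its difference of 0.37 did not pass (adjusted p = 0.102). By adjusted p of limma, 3 of the 7 genes were higher in basal cells, against 6.14% of all genes, and 0 passed the 2-fold threshold. All 7 had an unadjusted p under 0.05, where 31.6% of all genes had one. Of the 7, 5 lay on the basal side and Spry3 and Spred3 on the luminal side. The median difference of the 7 was -0.68, beside 0.02 over all genes.

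Dusp6 encodes the cytoplasmic phosphatase that removes the activating phosphates of ERK. It had log2 intensities of 6.89 and 6.93 in luminal arrays, against 7.99 and 7.91 in basal arrays. The replicates of each group nearly coincided, and the difference of -1.04 ± 0.12 (SE, adjusted p = 0.00670) was just over 2-fold. Etv5, an ETS factor induced by FGF signals, had 5.64 and 5.64 in luminal arrays, below background, against 5.93 and 6.51 in basal arrays. Its difference of -0.58 ± 0.21 did not pass (adjusted p = 0.118). Etv4, the related factor, had 6.02 and 5.47 in luminal arrays, against 5.66 and 5.26 in basal arrays. Its groups overlapped and its difference was 0.29 ± 0.23 (adjusted p = 0.480).

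The promoters of the feedback and ETS factor genes whose arrays lay apart on the basal side are shown, other than that of Spry4, which was not used here. They are given from RefSeq (build GRCm38.p6), with the letters CGGAA, a core bound by many ETS factors, or TTCCG, the same letters on the other strand, in capitals.
Spry1 promoter, chr3:37639697-37639996, plus strand: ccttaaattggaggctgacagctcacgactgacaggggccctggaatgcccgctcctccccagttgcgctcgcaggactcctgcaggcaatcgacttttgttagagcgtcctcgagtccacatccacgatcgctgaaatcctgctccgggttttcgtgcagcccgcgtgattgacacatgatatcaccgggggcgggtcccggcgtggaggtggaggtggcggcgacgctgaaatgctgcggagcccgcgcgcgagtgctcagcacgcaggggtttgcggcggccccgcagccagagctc
Spry2 promoter, chr14:105896770-105897069, minus strand: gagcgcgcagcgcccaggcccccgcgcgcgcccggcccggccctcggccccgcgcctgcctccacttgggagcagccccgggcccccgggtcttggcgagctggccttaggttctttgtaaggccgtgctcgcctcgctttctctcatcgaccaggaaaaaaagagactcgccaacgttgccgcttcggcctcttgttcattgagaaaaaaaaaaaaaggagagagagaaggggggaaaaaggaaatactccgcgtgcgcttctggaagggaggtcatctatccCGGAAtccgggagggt
Spred1 promoter, chr2:117120821-117121120, plus strand: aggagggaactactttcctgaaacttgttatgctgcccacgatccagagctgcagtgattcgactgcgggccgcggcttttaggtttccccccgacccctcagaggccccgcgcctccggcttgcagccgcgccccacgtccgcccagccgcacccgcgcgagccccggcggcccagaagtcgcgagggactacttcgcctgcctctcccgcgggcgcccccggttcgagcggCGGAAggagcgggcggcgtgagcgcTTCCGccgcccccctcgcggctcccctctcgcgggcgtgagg
Spred2 promoter, chr11:19924192-19924491, plus strand: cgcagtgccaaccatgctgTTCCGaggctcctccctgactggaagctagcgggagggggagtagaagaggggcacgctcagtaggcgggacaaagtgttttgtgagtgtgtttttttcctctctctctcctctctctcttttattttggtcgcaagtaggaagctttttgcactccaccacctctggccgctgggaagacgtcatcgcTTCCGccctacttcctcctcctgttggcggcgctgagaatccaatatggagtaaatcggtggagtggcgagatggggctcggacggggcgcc
Dusp6 promoter, chr10:99262981-99263280, plus strand: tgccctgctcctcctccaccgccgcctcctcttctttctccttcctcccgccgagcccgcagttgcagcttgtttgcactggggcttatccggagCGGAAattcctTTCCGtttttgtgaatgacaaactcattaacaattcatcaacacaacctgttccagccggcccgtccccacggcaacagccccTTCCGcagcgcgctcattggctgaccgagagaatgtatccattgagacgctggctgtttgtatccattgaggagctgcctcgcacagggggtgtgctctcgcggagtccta
Etv5 promoter, chr16:22438319-22438618, minus strand: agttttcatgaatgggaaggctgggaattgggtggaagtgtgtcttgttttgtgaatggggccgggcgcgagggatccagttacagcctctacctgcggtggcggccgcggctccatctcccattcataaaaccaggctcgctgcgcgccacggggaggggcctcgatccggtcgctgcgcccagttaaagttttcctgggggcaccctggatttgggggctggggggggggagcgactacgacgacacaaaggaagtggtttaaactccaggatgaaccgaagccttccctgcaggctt
Etv5 promoter, chr16:22439521-22439820, minus strand: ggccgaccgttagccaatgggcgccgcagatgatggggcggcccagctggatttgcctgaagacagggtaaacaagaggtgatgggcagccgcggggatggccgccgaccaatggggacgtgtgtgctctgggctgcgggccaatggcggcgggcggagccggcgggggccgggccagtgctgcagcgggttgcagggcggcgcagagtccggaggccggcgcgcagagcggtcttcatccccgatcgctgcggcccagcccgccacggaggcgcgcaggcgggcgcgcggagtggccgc
Dusp6 held 3 such stretches, Spred1 and Spred2 held 2 each, Spry2 held 1, and Spry1, both Etv5 promoters and Fgf2 held 0. Over the whole RefSeq table, 29.9% of 32851 promoters of this length held at least 1, and 13 of 36 promoters listed under 28 symbols of the rule did. A match describes letters only, and no match says only that these letters are not in this window.

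Over all 45033 probe sets 4.79% passed the 2-fold threshold, and 8 of the 73 probe sets of members did. Of 10 members with more than 1 probe set above background, 9 had all of them on the same side of 0. The 5 Spred1 probe sets ran from -0.82 to -0.74, and the 3 Spry4 probe sets above background from -0.87 to -0.67. Both Spry2 probe sets (-0.83 and -0.78) and both Fgfrl1 probe sets (-1.06 and -1.04) were higher in basal arrays. The 3 Fgfr1 probe sets ran from -0.85 to -0.57. The 3 Spred2 probe sets above background ran from -0.68 to -0.52. By limma over all probe sets, the one standing for Spred2 had an adjusted p of 0.0438, and the others 0.109 and 0.0714. Spred2 probe sets below background gave -0.24 and -0.0071.

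Fgfr2 was the exception. Its 2 brighter probe sets gave 0.22 and 0.21, and a dimmer one gave -0.77 ± 0.12 (SE, adjusted p = 0.0208 over all probe sets), with 5.82 and 5.75 in luminal arrays, against 6.63 and 6.48 in basal arrays. Which Fgfr2 transcripts each probe set reads is not given in the sources used here. Fgfr3 agreed in direction but not in size: its other probe set gave -0.31, and the one that stands for the gene had an adjusted p = 0.0540 over all probe sets. For Etv5, 2 further probe sets are annotated to Etv5 and Scpep1 together, so that their signal cannot be assigned to either gene, and they did not stand for Etv5. The first had 6.08 and 5.53 in luminal arrays, against 6.76 and 7.23 in basal arrays (-1.19 ± 0.24, adjusted p = 0.0405 over all probe sets). The other had 6.56 and 6.55 in luminal arrays, against 7.004 and 7.480 in basal arrays (-0.69 ± 0.18, adjusted p = 0.0740), and both were above background in both groups.

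**Figure D3:**
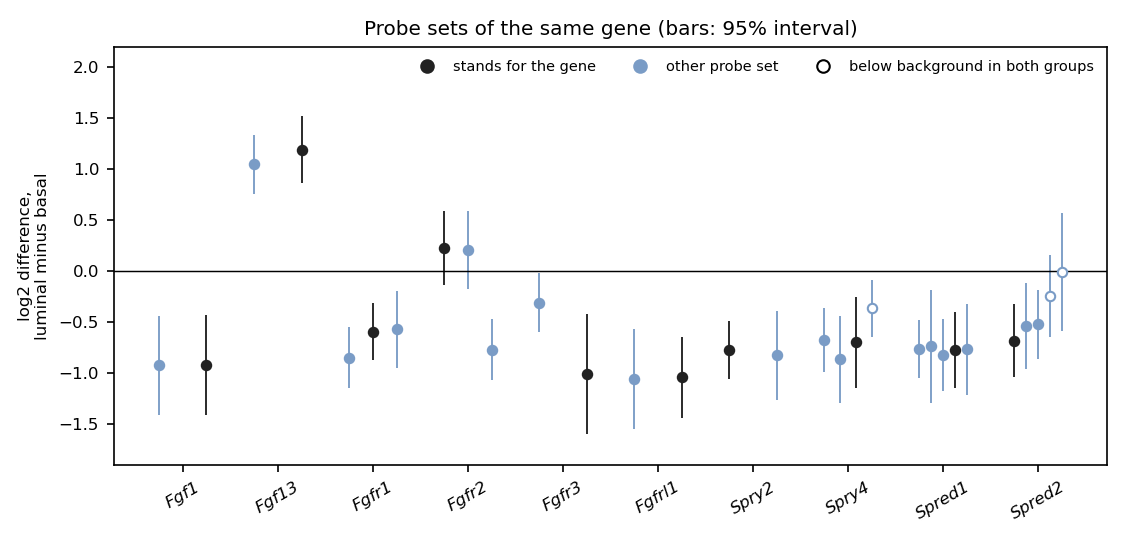
Log2 difference, luminal minus basal, of every probe set of the 10 members that have more than 1 probe set above background, with 95% intervals; the probe set standing for each gene is black and open circles lie below background in both groups. Fgfr2 is the gene with filled points on both sides of 0, at 0.22, 0.21 and -0.77.

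Genes around the receptors were taken from a list of FGF co-receptors, heparan sulfate enzymes, signal relay genes and ERK-responsive transcripts. Of 68 measured, 6 passed the 2-fold threshold by measured difference on the basal side (3.24% of all genes) and 2 on the luminal side (3.57% of all genes). The extracellular heparan sulfate endosulfatases differed in opposite directions. Sulf1 had log2 intensities of 6.17 and 6.73 in luminal arrays, against 9.58 and 9.58 in basal arrays (-3.13 ± 0.20, adjusted p = 0.00247). Sulf2 had 9.55 and 9.37 in luminal arrays, against 7.97 and 7.99 in basal arrays (1.48 ± 0.13, adjusted p = 0.00361). These enzymes trim sulfate groups from heparan sulfate chains, and neither gene's groups overlapped.

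Ext1, a polymerase of heparan sulfate, differed by -1.11 ± 0.13 (adjusted p = 0.00710), and Hs6st2, a 6-O-sulfotransferase, by -1.07 ± 0.27 (adjusted p = 0.0492) with its luminal values below background. With luminal values raised to the background level, Hs6st2 was at least 1.41-fold higher in basal cells. In all, 4 of 17 heparan sulfate enzymes passed the 2-fold threshold, against 6.81% of all genes. The means of 10 lay on the basal side, against 46.1% of all genes, and of 7 on the luminal side. Ext2 (0.02) and Extl2 (-0.68) did not pass, and Extl1 was higher in luminal cells by less than 2-fold (0.82). Of 16 co-receptor and FGF binding genes, the glypican gene Gpc6 differed, at 7.58 and 6.68 in luminal arrays, against 9.08 and 9.34 in basal arrays (-2.08 ± 0.30, adjusted p = 0.0118). It was the 1 gene of the 16 past the 2-fold threshold, which is close to the 6.81% of all genes. Flrt2 (-0.49), Flrt3 (-0.31) and the syndecan gene Sdc2 (-0.43) did not pass.

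Of 17 signal relay genes, the RAF scaffold gene Ksr1 (-1.54 ± 0.13, adjusted p = 0.00333) and the ubiquitin ligase gene Cblb (-1.22 ± 0.15, adjusted p = 0.00838) exceeded 2-fold on the basal side. Over all genes, 3.24% passed the 2-fold threshold on that side. The adaptor genes Grb2 (-0.27), Gab1 (-0.11) and Shc1 (0.05) did not pass, and the median of the 17 was -0.0025. Of 18 ERK-responsive transcripts, Ccnd1, the cyclin D1 gene, exceeded 2-fold on the luminal side (1.16 ± 0.13, adjusted p = 0.00619). On the luminal side 3.57% of all genes passed the threshold. Another 4 were higher in basal cells by adjusted p, against 6.14% of all genes, and under 2-fold, among them Dusp1 (-0.69). Dusp2 (-0.40) and Dusp4 (0.70) did not pass. The arrays did not overlap in 14 of the 18 on the basal side, where 25.3% of all genes lay. They did not overlap in 3 on the luminal side, where 33.9% of all genes lay, and the median was -0.38.

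**Figure D4:**
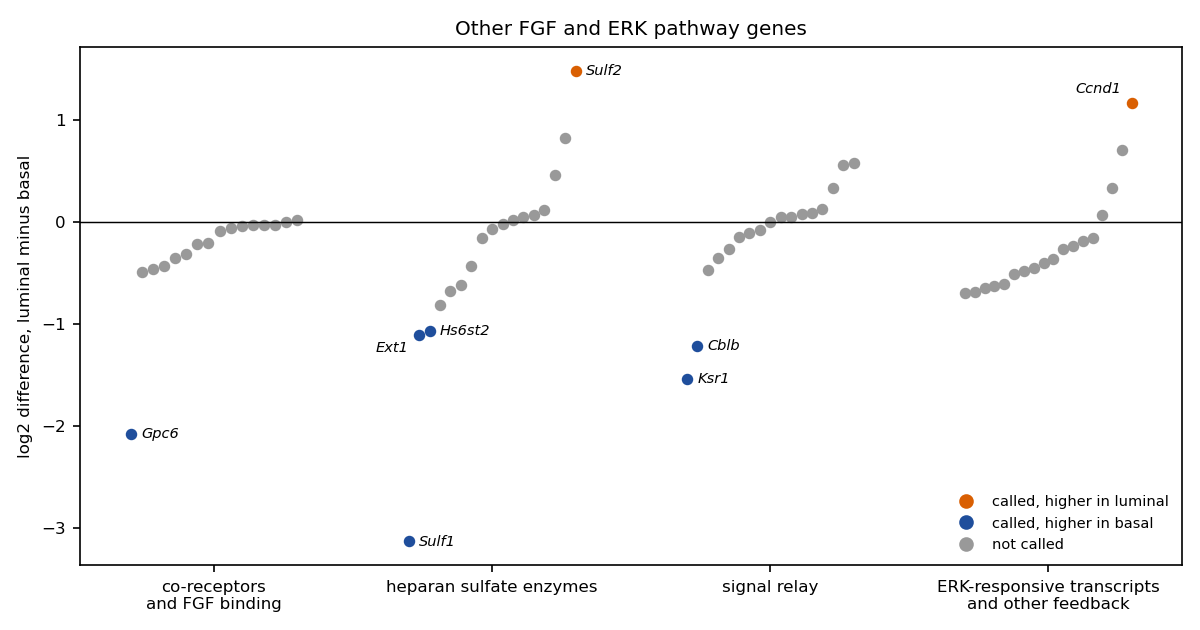
Log2 difference, luminal minus basal, of 68 other pathway genes in 4 sub-lists, 1 point per gene ordered by value, with genes past the 2-fold threshold named and coloured. Sulf1 at -3.13 and Sulf2 at 1.48 lie at the opposite ends of the heparan sulfate enzymes.

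Most markers of other cell types also had the higher mean in basal cells. Of 12 fibroblast markers 3 (Fbln1, Postn and Vim) passed at 2-fold on the basal side, against 3.24% of all genes, with a median of -1.21. Arrays lay apart on the basal side in 8 of the 12, against 25.3% of all genes, and overlapped in 4. Dcn and Lum were among the 4, Dcn at 10.4 and 9.67 in luminal arrays, against 9.79 and 10.2 in basal arrays (0.05). The log2 of the mean intensity of the fibroblast list was 8.07 and 8.83 in luminal arrays, against 9.59 and 9.86 in basal arrays. Of 8 endothelial markers none differed in limma, 7 had an unadjusted p under 0.05, against 31.6% of all genes, and the median was -1.26. The log2 of their mean intensity was 5.48 and 6.35 in luminal arrays, against 6.80 and 7.57 in basal arrays. Col1a2, Pdgfra and Tek lay below background in both groups. Of 8 leukocyte markers 5, Ptprc among them, lay below background in both groups, and the other 3, Lyz2 (-1.61), Cd74 (-0.80) and Cd68 (-0.49), lay apart on the basal side without passing. The log2 of the mean intensity of the leukocyte list was 5.40 and 6.01 in luminal arrays, against 6.11 and 6.41 in basal arrays. Of 3 adipocyte markers none passed in limma, 2 had an unadjusted p under 0.05, Fabp4 differed by -1.31, and Adipoq lay below background. The log2 of their mean intensity was 5.29 and 6.39 in luminal arrays, against 6.62 and 7.11 in basal arrays. In sorted populations, fewer cells of a type and less RNA per cell cannot be told apart, and the part of these cells in the FGF values was not tested.

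The markers of other cell types also differed between replicates of a lineage. Luminal replicate 2 minus replicate 1 had a median of 0.88 for endothelial, 0.78 for fibroblast and 0.50 for basal markers, and one of 0.02 for the 37 members and 0.09 for the Sprouty and Spred genes. Basal replicate 2 minus replicate 1 had a median of 0.80 for endothelial and 0.37 for fibroblast markers, 0.10 for the members and 0.20 for the Sprouty and Spred genes. Among the 18 members above background, the basal median was 0.22 and the luminal one 0.00085. Basal replicate 2 was the higher basal array in 12 of the 18 members above background, Fgf1, Fgf18 and Fgfr3 among them, and the lower one in 6, Fgf2, Spry2 and Dusp6 among them.

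The members above background were also fitted with each adult array left out. Fgf2 (from -2.37 to -2.02) and Fgf13 (from 1.09 to 1.29) were those that passed the 2-fold threshold by measured difference in all 4 of these fits, each with a group below background. Dusp6 ran from -1.08 to -0.998 and its adjusted p from 0.00662 to 0.0584. Spry2 ran from -0.83 to -0.73 and its adjusted p from 0.0151 to 0.100. Fgfr3 ran from -1.34 to -0.68, and its adjusted p reached 0.159 without luminal replicate 2.

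**Figure D5:**
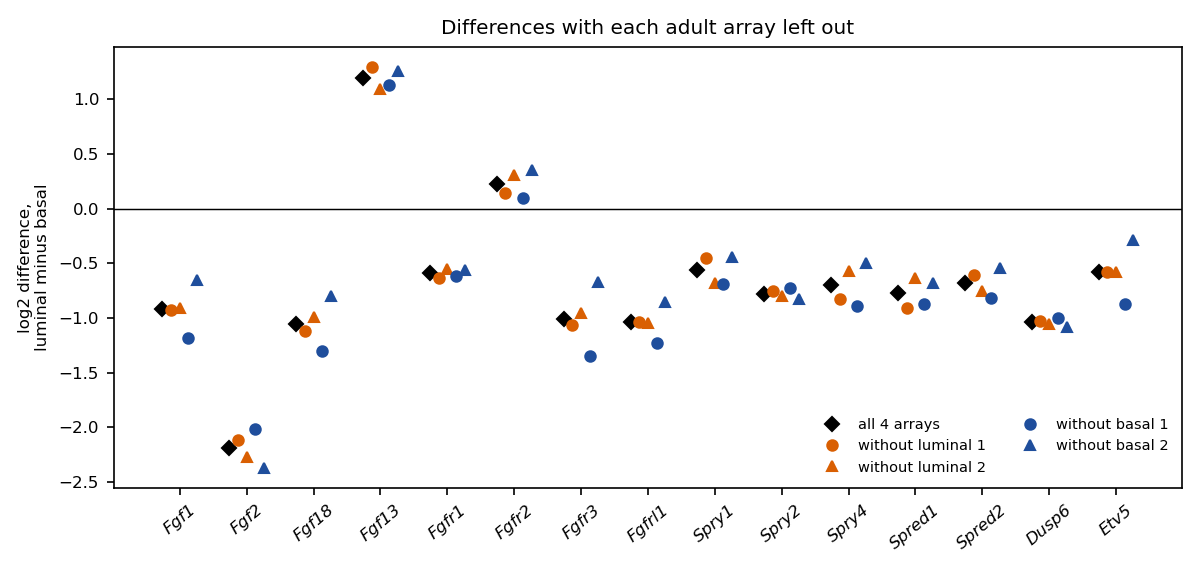
Log2 difference, luminal minus basal, of 15 members with all 4 adult arrays (black diamonds) and with each array left out (orange for a luminal array, blue for a basal array). Points of Dusp6, Spry2 and Fgfr1 lie close together, and those of Fgf1, Fgf18 and Fgfr3 spread with the choice of basal array.

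In the embryonic columns the members lay near the adult mean, as most of the table did. Their means minus the mean of the adult groups ran from -0.48 for Fgf2 to 0.03 for Etv4, with a median of 0.01 over the 37 members and 0.01 over all genes. Embryonic columns 1 and 2 held the same value for 11 of the 37 members, and 7 members, Fgf1 (6.78) and Fgf10 (4.87) among them, had the same value in all 3. Fgf2 had 4.95, 5.23 and 3.92 in the embryonic columns, Fgfr2 had 10.59, 10.74 and 10.93, Spry2 had 9.21, 9.35 and 8.49, and Dusp6 had 6.73, 7.39 and 7.45. These values describe the deposited columns, and no embryonic level of an FGF gene is read from them.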

How the data were processed

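Per the labels' protocols, total RNA of sorted cells was turned into cDNA, amplified, labelled and read on Affymetrix arrays; the adult samples carry the same text, which describes embryos. The authors deposited 1 intensity per probe set and array on a linear scale; RMA and affy are named in the submitters' processing notes, and their settings are not stated there. Log2 was taken before any test.

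Of 45141 rows, 45033 were used: 104 belonged to controls and 4 were empty. The platform annotation gave 1 symbol for 28895 probe sets, several for 551 and none here for 15587. Each of 17096 genes was represented by its brightest probe set, by mean log2 of the 7 arrays. Background was the 95th percentile of the means of 133 probe sets of 99 genes of other organs, 1 of which, Fgb, passed the 2-fold threshold. Limma 3.58.1 (R 4.3.3) with eBayes fitted the 2 group means to the 4 adult arrays (2 residual degrees of freedom, prior 3.73), with Benjamini-Hochberg adjustment over all genes, or over 45033 probe sets for single probe sets. The fit was tested on simulated data. Figures were drawn with matplotlib 3.10.9.

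Every member was named: those above background with each adult array, the others by name and range; of the other pathway genes, all that passed the 2-fold threshold and, per sub-list, up to 3 that did not, in list order among those above background. The members and lists were chosen with earlier results of these data known. Same-numbered adult replicates were checked for pairing: over genes, luminal 1 minus 2 and basal 1 minus 2 correlated at 0.08, and no label ties them. Alternatives covered arrays in the fit, probe set choice, dim genes, normalization, variance prior, array weights, the fold minimum, a replicate block and each array left out.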

Additional observations from a re-analysis of the deposited data

How the results depend on the processing

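Among 14 alternatives, Fgfr2 turned to -0.11 with the mean of all its probe sets. All 7 arrays in the fit gave 3 members past the 2-fold threshold on the basal side, where 5.49% of all genes passed it in either direction. By adjusted p alone, 5 members were higher in basal cells, against 4.80% of all genes. That fit put 3 member probe sets past the threshold, against 8 with the adult arrays. The mean of all probe sets of a gene, and likewise only genes above background, gave 1 member higher in luminal cells, by either criterion. By adjusted p alone, 10.7% and 20.8% of the genes fitted were higher there. Restricting to genes above background left 8471 genes and 15 of the 37 members, Fgf2 not among them. The median of those 15 was -0.70, beside 0.15 over the genes tested, so it describes a different set from the 37. With no fold minimum, 2879 genes (16.8% of all), 10 members higher in basal cells and 16 other pathway genes differed. Leaving out each array in turn gave 519 to 1443 genes, 1 to 5 members past the threshold on the basal and 1 to 2 on the luminal side, 1 to 14 members higher in basal and 1 to 2 in luminal cells by adjusted p alone, and member medians of -0.17 to -0.082; the lone array left in a group was assumed to vary like the other group. Counts by adjusted p alone under the alternatives were added after seeing the data. With the replicate number as a block, 1208 genes (7.07% of all) passed the threshold and the members gave the same counts, 5 higher in basal and 2 in luminal cells. The cause of these shifts was not tested. Signal near background limits Fgf8, Fgf12, Spred3, Etv4 and Etv5, and the number of arrays limits all values.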
